A study of Mus musculus with 5 samples.

Results

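The report covers 9 chemokine genes (Cxcl12, Cxcl1, Cxcl5, Cxcl10, Cxcl14, Cxcl16, Ccl2, Ccl7 and Cx3cl1) in mouse embryonic stem cells, hepatoma cells and the hybrids made by fusing them. The genes were taken from the 18327 genes that could be named on the array, and they are read by 12 of its 41174 probes. They were picked with their levels on these same arrays in view, so the levels are given as a description. Expression was measured on 5 one-colour Agilent mouse arrays, 1 for each condition. ES was the embryonic stem cell line E14, and Hepa1-6 was a mouse hepatoma (liver tumour) cell line. EHe was the ES-Hepa hybrid, a line from the fusion of E14 with Hepa1-6 cells, in its undifferentiated state. EheD7 and EheD14 were EHe after 7 and 14 days of differentiation in vitro. The medium of ES and of EHe held leukemia inhibitory factor, serum replacement and a little fetal bovine serum, whereas that of Hepa1-6 and, by the labels, of the differentiating hybrids was rich in glucose and held fetal calf serum. Medium and state therefore cannot be told apart. The labels describe differentiation as a monolayer, and the methods of the study describe embryoid bodies without tying them to the array samples.

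Each condition was hybridised once, so replicate error is unknown and no p-value is given for any difference. Hepa1-6 was on another slide than the other 4 arrays, so slide and hepatoma cannot be told apart. Levels are the processed signal as a percent of the 75th percentile of the same array, which lay between 1074 and 1390 signal units. A probe was taken as measured where the scanner software called its spots well above background. Below that only a bound exists, and the dim side was raised to the lowest signal called well above background on that array, which was 2.36% of the 75th percentile for ES, 2.65% for Hepa1-6, 3.52% for EHe, 1.42% for EheD7 and 2.17% for EheD14. Differences that use such a raised value are written as "at least". The only measure of technical error was the spread among the 10 spots of each of 245 probes printed repeatedly, with a median SD of 0.0851 on the log2 scale, and it covers the array alone. Because levels belong to a probe, the level of one gene was not set against that of another.

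Marker genes followed the labels in most respects. All 7 pluripotency markers on the array were well above background in ES and in all 3 hybrid arrays, against 2 of 7 in Hepa1-6. Of the 7, 4 were past 3-fold lower than EHe at EheD7 and 4 at EheD14, against 4.05% and 4.35% of all 15464 named genes tested. Esrrb went from 1634% of the 75th percentile in EHe to 131% in EheD7 and 14.2% in EheD14. Zfp42, Klf4 and Sox2 were lower at both days too, while Pou5f1, Tdgf1 and Dppa5a stayed within 3-fold. Of 8 hepatocyte markers, 6 were well above background in Hepa1-6, with a summed signal of 23896% of the 75th percentile against 31.6% to 60.0% on the other arrays. Ttr and Apoa1 were not well above background in Hepa1-6. Of 7 leukocyte markers, 2 to 3 were well above background on each array. Cd14 was so on all 5 (15.4% of the 75th percentile in ES to 548% in Hepa1-6), Aif1, Csf1r and Itgam on some, and Ptprc, Adgre1 and Tyrobp on none. Of 7 endothelial markers, 2 to 3 were well above background on each array. Vwf (23.8% in EheD14 to 341% in EHe) and Esam (7.17% in EheD7 to 167% in Hepa1-6) were so on all 5, Tek on 3, and Cdh5, Kdr, Emcn and Tie1 on none. The summed signal of the endothelial list was 41.5% to 365% of the 75th percentile. These are bulk RNA samples, in which fewer cells expressing a gene and less RNA per cell cannot be told apart.

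Chemokines are small secreted proteins that attract cells along a gradient by binding receptors of the G-protein-coupled family. They are grouped by the spacing of their conserved cysteines. Cxcl12 binds Cxcr4 and the scavenging receptor Ackr3 and guides stem and progenitor cells in the embryo and the bone marrow. Cxcl1 and Cxcl5 attract neutrophils through Cxcr2, Ccl2 and Ccl7 attract monocytes through Ccr2, and Cxcl10 attracts activated T cells through Cxcr3 and is a classical interferon target. Cx3cl1 and Cxcl16 are made as membrane-anchored proteins whose shed forms act on Cx3cr1 and Cxcr6. In liver, several of the inflammatory members are induced through NF-kB, the transcription factor downstream of interleukin 1, tumour necrosis factor and Toll-like receptors.

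The 250 bases before the transcription start are shown for 4 genes whose levels separated the arrays in different ways, as given by RefSeq for the build GRCm38.p6, 5′ to 3′ on the strand of the gene. Capitals mark matches, on either strand, to a kB motif (GGG, any 3 bases, then TTCC), an interferon-stimulated response element (TTTC, any 2 bases, then TTTC) or an AP-1 motif (TGANTCA).
Cxcl12: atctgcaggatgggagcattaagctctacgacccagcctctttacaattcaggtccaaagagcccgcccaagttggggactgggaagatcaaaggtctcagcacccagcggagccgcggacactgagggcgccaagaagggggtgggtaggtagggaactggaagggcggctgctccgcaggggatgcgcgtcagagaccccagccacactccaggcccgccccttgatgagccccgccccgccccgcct
Cx3cl1: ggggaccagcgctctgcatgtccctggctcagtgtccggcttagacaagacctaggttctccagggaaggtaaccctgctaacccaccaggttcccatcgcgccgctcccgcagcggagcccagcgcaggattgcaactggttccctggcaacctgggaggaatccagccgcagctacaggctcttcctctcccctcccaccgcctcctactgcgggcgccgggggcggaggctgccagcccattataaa
Cxcl1: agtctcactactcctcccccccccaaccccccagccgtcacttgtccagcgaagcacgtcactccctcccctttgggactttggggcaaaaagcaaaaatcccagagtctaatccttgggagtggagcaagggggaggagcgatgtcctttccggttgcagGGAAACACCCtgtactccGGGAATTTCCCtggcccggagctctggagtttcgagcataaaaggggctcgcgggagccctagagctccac
Cxcl10: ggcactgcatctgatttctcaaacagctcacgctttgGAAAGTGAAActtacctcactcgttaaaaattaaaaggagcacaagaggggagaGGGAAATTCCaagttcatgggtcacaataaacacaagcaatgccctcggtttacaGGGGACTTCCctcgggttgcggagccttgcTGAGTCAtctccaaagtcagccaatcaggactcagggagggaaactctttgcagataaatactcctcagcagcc
The windows are chr6:117168285-117168534 on the plus strand for Cxcl12, chr8:94771930-94772179 on the plus strand for Cx3cl1, chr5:90890995-90891244 on the plus strand for Cxcl1 and chr5:92348890-92349139 on the minus strand for Cxcl10. Cxcl14 had a window too, and Cxcl5, Cxcl16, Ccl2 and Ccl7 had no entry. The windows of Cxcl12 and Cx3cl1 held none of the 3 motifs, and their base composition was 64.4% and 64.8% G or C with 14 CpG dinucleotides each, against a median of 52.4% and 6 over the 32851 windows of the table. The Cxcl1 window held the kB letters GGGAATTTCC from 71 to 62 bases before the start, a match to the other strand that overlaps it, and a further match, GGAAACACCC, from 89 to 80 bases. The Cxcl10 window held kB letters from 159 to 150 and from 104 to 95 bases before the start, response element letters from 213 to 204 bases, and AP-1 letters from 74 to 68 bases. Among all windows, 4.65% held the kB motif, 2.98% the response element and 6.75% the AP-1 motif. A match is a description of letters, not of a bound site.

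Cxcl12 was detected in the differentiating hybrids at levels that neither parent line had. Its level was 2.79% of the 75th percentile in ES and 0.566% in Hepa1-6, 1.00% in EHe, 295% in EheD7 and 369% in EheD14. The EHe and Hepa1-6 signals were not well above background, and the ES level was close to the lowest one called so on that array, 2.36%. EheD7 was thus at least 83.9-fold and EheD14 at least 105-fold above EHe, and Hepa1-6 was at least 139-fold below EheD14. Between the 2 days the level was 1.25-fold higher at EheD14, a log2 difference of 0.32. In ES the gene could not be separated from Hepa1-6, which was lower by at least 1.05-fold, and EHe against ES gave no fold.

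The array carries a further Cxcl12 probe, assigned to another transcript record of the gene. It read 13.8% of the 75th percentile in EheD7 and 16.1% in EheD14, and it was not well above background in ES, EHe or Hepa1-6. Its differences from EHe were at least 3.91-fold at EheD7 and at least 4.57-fold at EheD14. Both probes put the differentiated hybrids on top, and they disagree on the size. The log2 difference of EheD14 from EHe was 4.45 when both probes were averaged and 5.17 with another background correction (normexp), against 6.71 for the brighter probe as given above.

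**Figure D1:**
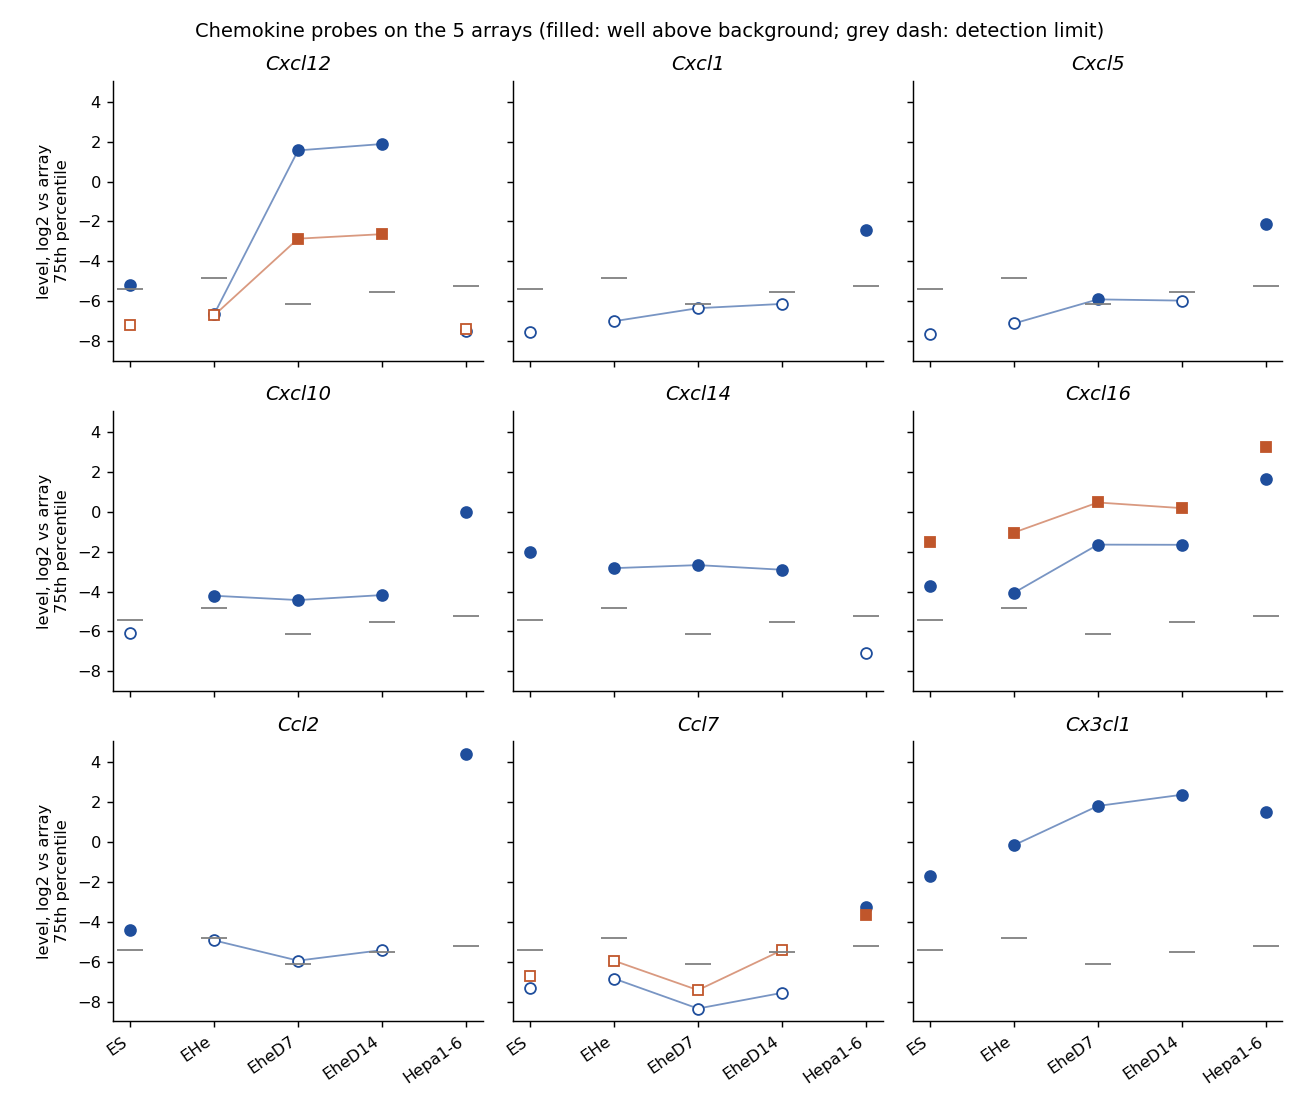
Level of each probe of the 9 chemokine genes (log2 of the signal relative to the 75th percentile of its array) on the 5 arrays, 1 array per condition. Filled symbols are well above background, open symbols are not, grey dashes are the detection limit of each array, a second symbol shape is a second probe, and lines join only EHe, EheD7 and EheD14. Cxcl12 and Cx3cl1 are high in EheD7 and EheD14, while Cxcl1, Cxcl5, Cxcl10, Cxcl16, Ccl2 and Ccl7 are highest in Hepa1-6.

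The receptors of Cxcl12 did not follow it. Cxcr4, its signalling receptor, read 4.50% of the 75th percentile in ES, 2.17% in EheD7 and 2.82% in EheD14, all near the detection limit, and it was not well above background in EHe or Hepa1-6. Its other probe was not well above background on any array. Ackr3, which takes up and degrades Cxcl12, read 20.3% in ES, 5.52% in EHe, 6.04% in EheD7 and 4.29% in EheD14, and it was not well above background in Hepa1-6. Ackr3 was 3.67-fold lower in EHe than in ES and at least 7.66-fold lower in Hepa1-6 than in ES. Dpp4, the membrane protease that inactivates Cxcl12 by removing its amino-terminal residues, ran the opposite way to its substrate between EHe and the differentiated hybrids, while in Hepa1-6 neither its brightest probe nor Cxcl12 was well above background. It read 162% in ES, 268% in EHe, 12.7% in EheD7 and 18.5% in EheD14, which is 21.1-fold and 14.5-fold lower than EHe at the 2 days. A further Dpp4 probe gave the same order over these 4 arrays. The third one was well above background in ES, EHe and Hepa1-6 only, so the probes disagree on Hepa1-6.

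Markers of fibroblasts and mesenchyme moved in both directions beside Cxcl12. Of 10 tested, 4 were past 3-fold higher and 1 lower at EheD7 against EHe, and 5 were higher and 0 lower at EheD14, against 6.87% and 4.05% of all 15464 named genes tested at EheD7 and 6.92% and 4.35% at EheD14. Col1a1, a fibrillar collagen chain, was 22.3-fold and 19.6-fold above EHe at EheD7 and EheD14, Col1a2 5.34-fold and 5.12-fold, Pdgfrb 6.97-fold and 4.94-fold, and Thy1 3.52-fold and 4.53-fold. Twist1 passed at EheD14 (3.36-fold) and not at EheD7 (2.81-fold). Vim, the intermediate filament of mesenchymal cells, went the other way, from 3982% of the 75th percentile in EHe to 1163% in EheD7, 3.42-fold lower, and 1546% in EheD14, 2.58-fold lower. Vim made up most of the summed signal of the list in ES (2273%), EHe (4095%), EheD7 (1687%) and EheD14 (2134%). In Hepa1-6 the sum was 19145%, of which Dcn gave 18411.5% and Vim 709%. Set against ES in place of EHe, these markers differed. Pdgfrb read 44.8% of the 75th percentile in ES, above its 31.7% in EheD7 and 22.5% in EheD14. Col1a2 read 32.9% in ES, against 63.8% and 61.2% at the 2 days. Col1a1 (12.8% in ES) and Thy1 (63.4% in ES) were lower in ES than at both days. A further Col1a1 probe was not well above background on any array. Of the 10 tested markers, 6 were well above background in EHe and 9 in each of EheD7 and EheD14, against 83.2%, 94.2% and 90.7% of all tested genes. The detection limit was highest in EHe, and Prrx1 (2.87%) and Pdgfra (2.29%) in EheD7 lay below it. Lum was not well above background on any array, and Dcn only in Hepa1-6. The part of such cells in the Cxcl12 level was not tested.

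The named genes whose profile over the 5 arrays was most like that of Cxcl12 were Wnt3, Has2, T, Fnd3c2 and Fgf5. The measure was the root mean square difference between the profiles after each was centred on its own mean, and it was 0.246 for Wnt3, 0.290 for Has2, 0.318 for T, 0.385 for Fnd3c2 and 0.445 for Fgf5 on the log2 scale. The list was picked from all named genes for this likeness over 5 arrays only. Among the other chemokines the nearest was Cx3cl1, at place 657 with 2.49.

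Cx3cl1, the membrane-anchored chemokine also called fractalkine, was well above background on all 5 arrays. It read 30.1% of the 75th percentile in ES and 287% in Hepa1-6, and 89.3% in EHe, 349% in EheD7 and 515% in EheD14. Both days were above EHe, by 3.91-fold at EheD7 and 5.77-fold at EheD14, and EHe itself was 2.96-fold above ES, a value that crossed 3-fold under 3 other scalings. Hepa1-6 was 9.51-fold above ES and 1.80-fold below EheD14. That last difference kept its sign under every scaling tried, and it narrowed to 1.07-fold with each array centred on its median. Its receptor Cx3cr1 was not well above background on any array. Of its neighbours on chromosome 8, Ccl22 was well above background in EHe only, and Ccl17 differed by less than 3-fold in all 7 comparisons.

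Cxcl16, the other membrane-anchored member, was highest in Hepa1-6. Its level was 942% of the 75th percentile in Hepa1-6 and 35.5% in ES, with the hybrids between them at 48.6% for EHe, 138% for EheD7 and 113.5% for EheD14, and it was well above background throughout. Hepa1-6 exceeded ES by 26.5-fold and EheD14 by 8.30-fold. The days exceeded EHe by 2.84-fold and 2.34-fold, below the 3-fold mark, while the other Cxcl16 probe gave 5.33-fold and 5.30-fold, above it. The 2 probes also differed in sign between EHe and ES, with EHe 1.37-fold higher on the one and lower by 0.32 on the log2 scale on the other. Cxcr6, the receptor of Cxcl16, was not well above background on any array. Of the proteins that shed such ligands, Adam17 stayed within 3-fold in all comparisons.

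**Figure D2:**
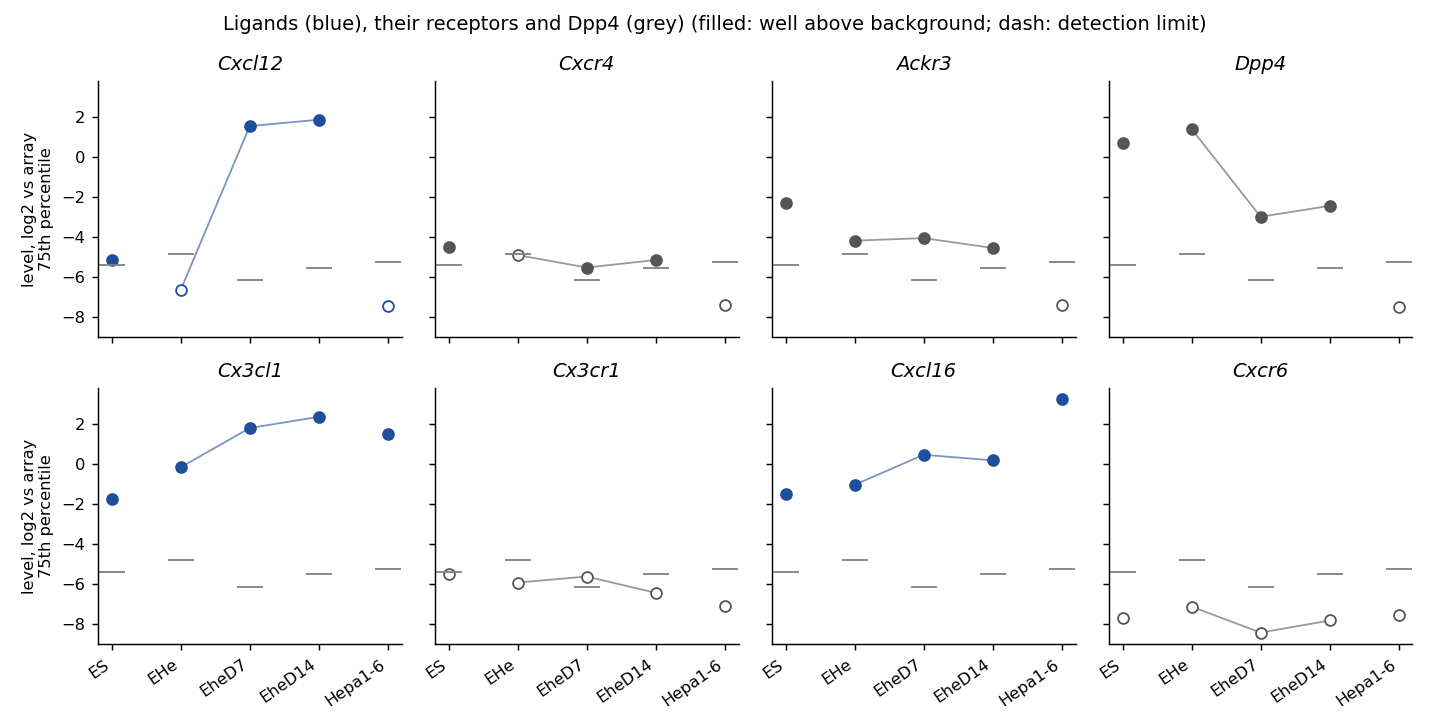
Levels (log2 relative to the 75th percentile of each array) of Cxcl12, Cx3cl1 and Cxcl16 in blue beside Cxcr4, Ackr3, Dpp4, Cx3cr1 and Cxcr6 in grey, 1 array per condition. Filled points are well above background, open points are not, and dashes are the detection limits. Cxcl12 is high where Dpp4 is low among the hybrids, and Cx3cr1 and Cxcr6 are open on all 5 arrays.

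Cxcl1 and Cxcl5, the neutrophil attractants, were Hepa1-6 genes on these arrays. Cxcl1 read 18.8% of the 75th percentile in Hepa1-6 and was not well above background elsewhere, with signals of 5.88 units in ES, 10.0 in EHe, 15.9 in EheD7 and 18.7 in EheD14. Cxcl5 read 23.2% in Hepa1-6 and 1.67% in EheD7, where it was just above the limit, and it was not well above background in ES, EHe or EheD14. Hepa1-6 exceeded ES by at least 7.96-fold for Cxcl1 and at least 9.84-fold for Cxcl5, and EheD14 by at least 3.12 and at least 3.42 on the log2 scale. Neither gene has a fold between EheD14 and EHe, where both arrays were dim. The 2 genes lie on chromosome 5 among 7 chemokine genes in a row (Cxcl5, Ppbp, Pf4, Cxcl3, Cxcl15, Cxcl1 and Cxcl2). Of these 7, 5 were well above background in Hepa1-6, all but Pf4 and Cxcl2, and Cxcl5 in EheD7 was the only one called so on another array. Cxcl3, a neutrophil attractant of the same group, read 210% of the 75th percentile in Hepa1-6, at least 89.0-fold above ES. Cxcr1 and Cxcr2 were not well above background on any array.

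Ccl2, the main monocyte attractant, showed the widest difference of the 9 genes. It read 4.76% of the 75th percentile in ES and 2115% in Hepa1-6, and it was not well above background in EHe, EheD7 or EheD14. Its probe is printed 10 times. All 10 spots were well above background in ES and in Hepa1-6, 0 of 9 in EHe, 5 of 10 in EheD7 and 2 of 10 in EheD14. The spots had an SD of 0.077 on the log2 scale in Hepa1-6 and of 0.19 to 0.27 on the other 4 arrays, so the dim arrays are uncertain by about that much. Hepa1-6 was 444-fold above ES, at least 601-fold above EHe and at least 907-fold above EheD14. EHe, of which Hepa1-6 is a parent, was at least 1.35-fold below ES. Leukocyte markers, whose cells make Ccl2 too, had 3 of 7 genes well above background in Hepa1-6. Their summed signal there was 561% of the 75th percentile, against 28.7% to 160% on the other arrays. The sum is mostly a single gene: Cd14 gave 548% of the 75th percentile in Hepa1-6, and 153% in EheD7, where the sum was 160%. Ptprc, Adgre1 and Tyrobp were not well above background in Hepa1-6.

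Ccl7, which adjoins Ccl2 on chromosome 11, was called well above background in Hepa1-6 alone on both of its probes. The brighter one on average read 7.77% of the 75th percentile there and the other 10.5%. Hepa1-6 was at least 3.29-fold above ES by the one and at least 4.46-fold by the other. With normexp the bound for the gene fell to 1.76-fold. In the run of Ccl2, Ccl7, Ccl11, Ccl12, Ccl8 and Ccl1, the leading 3 were well above background in Hepa1-6 and the remaining 3 on no array. Ccr2, a receptor of both members, and Ccr1 were not well above background on any array. Other chemokine receptors were detected at low levels. Ccr3 read 6.04% of the 75th percentile in ES, 3.12% in EheD7 and 3.09% in EheD14, while its other probe was not well above background on any array. Ackr1 read 4.66% in ES and 2.32% in EheD7. Neither was well above background in EHe or Hepa1-6.

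**Figure D3:**
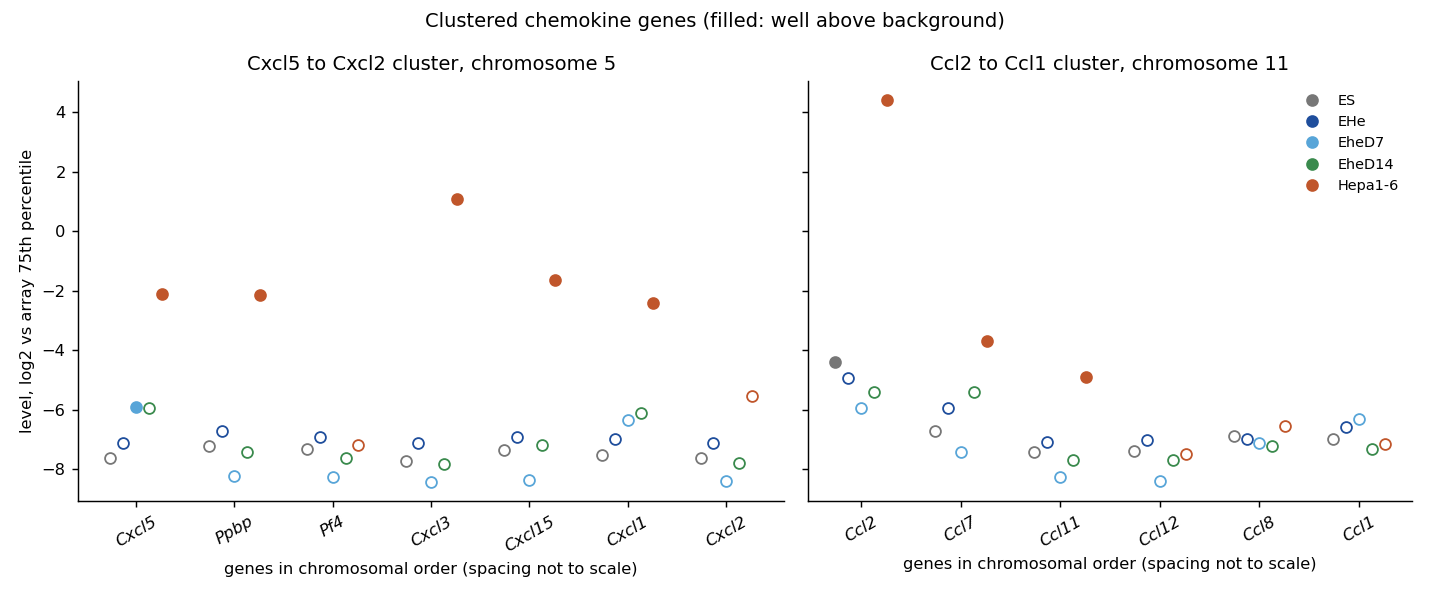
Levels (log2 relative to the 75th percentile of each array) of the chemokine genes in a row on chromosome 5 (left) and chromosome 11 (right), in chromosomal order with spacing not to scale, 1 array per condition. Filled points are well above background. Nearly all filled points belong to Hepa1-6, the exceptions being Cxcl5 in EheD7 and Ccl2 in ES.

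Cxcl10 was dim in ES, low in the 3 hybrid arrays, and high in Hepa1-6. It read 1.46% of the 75th percentile in ES, not well above background, 5.41% in EHe, 4.65% in EheD7 and 5.54% in EheD14, and it reached 100.4% in Hepa1-6. EHe was at least 2.29-fold above ES. EheD7 and EheD14 differed from EHe by -0.22 and 0.033 on the log2 scale, against a median SD among repeated spots of 0.0851. Dim probes can spread more, as the repeated Ccl2 probe had an SD of 0.249 at 4.76% in ES. Hepa1-6 was at least 42.5-fold above ES, 18.6-fold above EHe and 18.1-fold above EheD14. Its receptor Cxcr3 was well above background in EHe only, at 5.47%. Cxcl9, which lies close to Cxcl10 and is also an interferon target, was not well above background on any array.

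Of the 12 genes that carry interferon signals to Cxcl10, 10 were tested. In Hepa1-6 against ES 4 were past 3-fold higher and 1 lower, against 13.6% and 20.3% of all genes. The higher ones were the kinase Jak2 (35.3-fold), the receptor chains Ifngr1 (27.4-fold), Ifngr2 (9.32-fold) and Ifnar2 (3.14-fold), and the lower one was Stat2 (3.42-fold). The other Ifnar2 probe stayed within 3-fold, at 145% of the 75th percentile in Hepa1-6 and 102% in ES. At EheD14 against EHe 1 was higher, the transcription factor Irf1 (3.26-fold), which did not pass at EheD7 (1.71-fold). That is 1 of 10 against 6.92% of all genes, and 0 with median centring of the arrays. The other Irf1 probe stayed within 3-fold, at 80.2% in EheD14 and 36.2% in EHe. The interferon genes Ifng and Ifnb1 were not well above background on any array.

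Cxcl14, a chemokine of epithelia, had the reverse pattern to the other Hepa1-6 genes. It read 24.4% of the 75th percentile in ES, 14.1% in EHe, 15.7% in EheD7 and 13.4% in EheD14, and in Hepa1-6 it was not well above background. Hepa1-6 was at least 9.21-fold below ES and at least 5.04-fold below EheD14. The bound against EheD14 fell to 2.47-fold with normexp, 2.75-fold with quantile normalization and 2.99-fold with median centring. ES was 1.73-fold above EHe. The 3 hybrid arrays lay within 0.23 of each other on the log2 scale, and EHe and EheD14 differed by less than the median SD of repeated spots.

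Counting the 9 genes by comparison, Hepa1-6 against ES had 7 past 3-fold higher (Cxcl1, Cxcl5, Cxcl10, Cxcl16, Ccl2, Ccl7 and Cx3cl1) and 1 lower (Cxcl14). Over all 15464 named genes tested, 13.6% were higher and 20.3% lower in the same comparison. The median of the members' log2 differences was 3.25, against -0.37 over all genes, both with dim signals raised to the detection limit and genes dim on both arrays left out. In EHe against Hepa1-6, 6 were lower and 1 higher (Cxcl14), against 13.3% and 17.3% of all genes, and in Hepa1-6 against EheD14, 6 were higher and 2 lower (Cxcl12 and Cxcl14), against 12.6% and 17.3%. At EheD7 and at EheD14 against EHe the same 2 were higher, Cxcl12 and Cx3cl1, and 0 were lower, against 6.87% and 4.05% of all genes at EheD7 and 6.92% and 4.35% at EheD14. Of all genes, 5.76% were higher and 3.36% lower at both days. Their median log2 difference at EheD14 was 1.22 over the 5 with a fold, against -0.04 over all genes. In EHe against ES, 0 members were higher or lower, against 2.36% and 3.28% of all genes, and in EheD14 against EheD7 again 0, against 0.517% and 0.692%. These comparisons share arrays, and the members were chosen on these values, so the counts describe the choice. In the order of each gene's levels, 3 adjacent pairs were closer than the median SD of repeated spots, EheD7 and EheD14 for Cxcl5, EheD14 and EHe for Cxcl10, and EHe and EheD14 for Cxcl14.

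**Figure D4:**
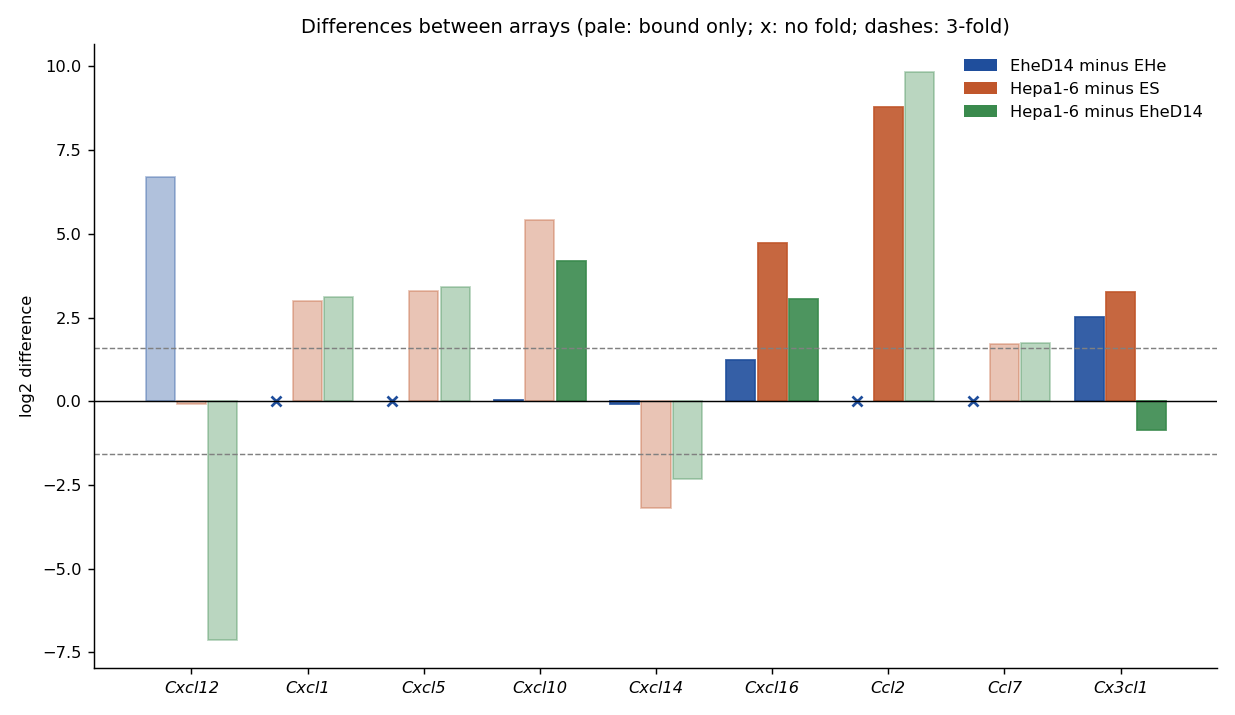
Log2 differences for the 9 chemokine genes in 3 comparisons that share arrays: EheD14 minus EHe, Hepa1-6 minus ES and Hepa1-6 minus EheD14. Pale bars are bounds because one array was not well above background, crosses mark genes that were dim on both arrays, and dashed lines mark 3-fold. Cxcl12 reaches at least 6.71 in EheD14 minus EHe, and Ccl2 reaches 8.80 in Hepa1-6 minus ES.

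How many of the 9 were well above background differed between arrays, with 7 in Hepa1-6, 6 in EheD7, 5 in ES and in EheD14, and 4 in EHe. Over all tested genes the shares were 77.6%, 94.2%, 89.9%, 90.7% and 83.2% for Hepa1-6, EheD7, ES, EheD14 and EHe, so Hepa1-6 had the lowest share of all genes and the highest count of these chemokines. The 9 were chosen on these levels, so their counts describe the choice. Of all 36 chemokine ligands on the array, the 9 included, 19 were well above background in Hepa1-6, against 14 in EheD7, 11 in EheD14 and 10 each in ES and EHe. Of the 27 others, 12 were so in Hepa1-6, 8 in EheD7, 6 each in EheD14 and EHe, and 5 in ES. Over all probes the shares were 54.8% in Hepa1-6, 67.6% in EheD7, 63.6% in EheD14, 56.9% in EHe and 62.1% in ES.

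The 27 other chemokine ligands on the array were led by Hepa1-6 as well. Of 13 tested, Hepa1-6 against ES had 7 past 3-fold higher and 1 lower, against 13.6% and 20.3% of all genes. The higher ones were Cxcl3, Ppbp (at least 9.46-fold), Cxcl15 (at least 13.5-fold), Ccl9 (at least 31.9-fold), Ccl20 (at least 131-fold), Ccl25 (13.2-fold) and Ccl5 (3.31-fold). Ccl19 was 3.44-fold lower. Cxcl3, Ppbp and Cxcl15 were well above background in Hepa1-6 alone. They were thus tested only through the array where they were high, and for them the count describes the filter. Ccl20, which draws lymphocytes through Ccr6, was the only ligand outside the 9 that was past 3-fold higher at both days. It was not well above background in ES or EHe and read 13.6% of the 75th percentile in EheD7, 19.5% in EheD14 and 311% in Hepa1-6, which is at least 3.87-fold and at least 5.55-fold above EHe at the 2 days. Ccl22 was at least 3.77-fold lower than EHe at EheD7. Of the 13, 1 was thus higher and 1 lower at EheD7, against 6.87% and 4.05% of all genes. With normexp 0 were higher and 0 lower at EheD7, against 4.49% and 2.30%, and 1 was higher at EheD14, against 4.61%. In Hepa1-6 against ES 6 were higher and 0 lower with normexp, against 10.8% and 14.2%. A further 14 of the 27 were not well above background on any array, among them Cxcl2, Cxcl9, Ccl3 and Ccl4.

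Of 23 chemokine receptors on the array, 12 were not well above background on any array, and 11 were tested. Of these 11, the number well above background was 3 in Hepa1-6 and in EHe, 9 in ES and in EheD7, and 7 in EheD14. Over all tested genes the share was also lowest in Hepa1-6 (77.6%) and EHe (83.2%) and highest in EheD7 (94.2%), and EHe had the highest detection limit and EheD7 the lowest. In Hepa1-6 against ES 1 of the 11 was higher and 3 were lower, against 13.6% and 20.3% of all genes. Ccrl2, a receptor that binds chemerin, was at least 6.99-fold higher, and it was well above background in Hepa1-6 alone. Ackr3, the decoy receptor Ackr2 (at least 4.31-fold) and Ccr6 (at least 3.51-fold) were lower. In EHe against ES 2 were lower, Ackr3 and Ackr2 (at least 3.24-fold), against 3.28% of all genes. With normexp 0 receptors were higher and 1 lower in Hepa1-6 against ES, where 10.8% and 14.2% of all genes were. In EHe against ES 0 were lower with normexp, against 1.64% of all genes. None was past 3-fold in EheD14 against EHe, where 6.92% of all genes were higher and 4.35% lower. Cxcr3 alone was lower at EheD7, by at least 3.85-fold, which is 1 of 11 against 4.05% of all genes. With normexp 0 receptors were lower at EheD7.

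Genes that cut, shed or anchor chemokines (17 tested) had 4 higher and 2 lower at EheD14 against EHe, where 6.92% and 4.35% of all genes were. With normexp 2 were higher, against 4.61% of all genes. The proteases Mmp2 (9.27-fold and 7.74-fold) and Mmp9 (at least 5.79-fold and at least 3.81-fold) and the heparan sulfate proteoglycan Sdc4 (9.12-fold and 7.38-fold) were higher at both days, and Dpp4 was lower at both. Mmp2 and Mmp9 cleave chemokines, and Sdc4 holds them at the cell surface. In Hepa1-6 against ES 4 were higher, Sdc2, Sdc4 (10.1-fold), Ndst1 and Cpd, and 2 were lower, Dpp4 (at least 61.3-fold) and Mmp2 (at least 12.3-fold). Over all genes 13.6% were higher and 20.3% lower. With median centring 9 were higher, against 22.0% of all genes. The other Sdc4 probe was lower in Hepa1-6 than in ES, at 77.2% against 201% of the 75th percentile, so the Sdc4 direction there depends on the probe, as the Dpp4 level in Hepa1-6 does.

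Of 24 tested genes of NF-kB and cytokine signalling, Hepa1-6 had 13 past 3-fold higher against ES and 0 lower, with a median log2 difference of 1.69. Over all genes, 13.6% were higher and 20.3% lower, with a median of -0.37. Among the 13 were the subunits Nfkb2 (17.2-fold), Rela and Relb (4.13-fold), and the regulators Nfkbie, Nfkbiz and Tnfaip3 (40.6-fold). The receptors were Tnfrsf1a, Il1r1 (5.64-fold) and Tlr4 (at least 21.2-fold). The rest were the growth factors Csf1 (at least 268-fold) and Csf2, the adhesion molecule Vcam1 (at least 243-fold) and Birc3. Tlr4, Csf2 and Vcam1 were well above background in Hepa1-6 alone, so they were tested only through the array where they were high. At both days against EHe 3 were higher, Csf1 (at least 3.36 and at least 3.70 on the log2 scale), Il1r1 (4.25-fold and 3.50-fold) and Nfkb2 (3.17-fold and 3.02-fold), and Tlr2 was lower (3.53-fold and 6.49-fold). Over all genes 5.76% were higher and 3.36% lower at both days. With normexp 1 was higher at each day, against 4.49% of all genes at EheD7 and 4.61% at EheD14. With median centring 2 were, against 5.89% and 6.16%. Of the ligands that act on this pathway, Il1a and Il1b were not well above background on any array, and Tnf was called so in ES alone. Of the 27 ligand genes on the array with a promoter window, 7 held the kB motif (Ccl1, Ccl20, Ccl9, Cxcl1, Cxcl10, Cxcl2 and Cxcl3), and 5 of these were well above background in Hepa1-6, against 8 of the 20 without it. For the AP-1 motif the counts were 4 of 4 against 9 of 23, and for the interferon-stimulated response element 2 of 3 against 11 of 24. The counts include 5 of the 9 members, which were chosen on their levels. Over all probes, 54.8% were well above background in Hepa1-6. Any part of the motifs in these levels was not tested.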

How the data were processed

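RNA from 5 conditions was hybridised to 5 Agilent mouse oligo arrays, 1 per condition (the labels give Cy3, the methods of the study Cy5). Per the labels and file headers, the authors deposited 1 scanner table per array from Agilent Feature Extraction 10.7.3.1. The processed signal in it is an intensity that the software had corrected for background, with no normalization between arrays. The deposited series table held the same values (largest relative difference 0).

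Control spots and outlier spots were left out, spots were averaged per probe as log2 of the deposited intensity, and the 75th percentile of each array was subtracted. Of 41174 probes, 26888 were named through RefSeq records. A probe was well above background where most of its spots were, and tested genes had such a probe on at least 1 array (15464 of 18327). The brightest such probe stood for a gene. Differences were counted past 3-fold. Arrays had 54.8% to 67.6% of probes well above background, and their number limits the precision. Promoter windows came from RefSeq and were searched for exact letters. Genes named are the members, their receptors, list genes past 3-fold at both days or between Hepa1-6 and ES, and the 5 most like Cxcl12. Ccl22, Irf1, Ccr3, Ackr1, the rest of the interferon list and the cell type markers were named after their values were seen, as examples.

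The members and gene lists were chosen with earlier results of these data known. The alternatives were normexp background correction (offset 50, on the median spot signal), quantile normalization, median centring, the percentile over probes detected on all arrays, dim signals as measured, a 2-fold mark, 2 other filters, the mean of a gene's probes and the series table. The steps were tested on simulated data. The work used R 4.3.3 with limma 3.58.1 and Python 3.11.15 with pandas 2.3.3, numpy 2.4.6 and matplotlib 3.10.9.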

Additional observations from a re-analysis of the deposited data

How the results depend on the processing

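With 1 array per condition, the values rest on single hybridisations. No paired analysis was possible because the conditions had a single array each. No member difference past 3-fold changed sign under any alternative run. The Cxcl12 log2 difference of EheD14 from EHe, at least 6.71, was 5.17 with normexp, 6.82 with quantile normalization, 6.57 with median centring, 6.81 with the percentile over probes detected on all arrays, 8.53 with dim signals as measured and 4.45 as the mean of both probes. That of Hepa1-6 from EheD14, -7.12, was -5.33, -6.46, -6.37, -7.31, -9.35 and -4.86 in the same order. In EHe against ES, 1 member (Cx3cl1, or Cxcl10 with signals as measured) passed 3-fold in place of 0 with quantile normalization, median centring, the percentile over detected probes and signals as measured, and 2 passed 2-fold. Restricted to genes well above background on all 5 arrays, 2 members passed in Hepa1-6 against ES, 2 in EHe against Hepa1-6, 1 in Hepa1-6 against EheD14 and 1 at each day against EHe. With signals as measured 1 (Ccl7, dim on both arrays) passed between the 2 days, and with normexp 5 passed in Hepa1-6 against EheD14, where Cxcl1, Cxcl14 and Ccl7 did not. In that comparison Cxcl14 also failed with quantile normalization and median centring, and Ccl7 with the percentile over detected probes. With normexp 7 passed in Hepa1-6 against ES, where Ccl7 did not, and 5 in EHe against Hepa1-6, where Cxcl14 and Cx3cl1 did not. Of 207 values for the other 25 member differences past 3-fold, 95 moved by more than the SD of repeated spots and 9 fell below 3-fold. The 207 include the series table and the 2 other filters, which reuse the same probe values and could not move a difference. The 207 therefore understate how far the differences depend on the processing. Median centring moved the median of all genes in Hepa1-6 against ES, here taken with dim signals as measured, from -0.44 to 0.30 and the share of calls that were higher from 40.2% to 64.6%. For Hepa1-6 against EheD14 that share went from 42.2% to 66.4%, and for EHe against Hepa1-6 from 56.5% to 36.2%. The cause was not tested.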
